A study of Mus with 2 samples.

Results

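Cytochrome P450, aldehyde dehydrogenase, UDP-glycosyltransferase, sulfotransferase and carboxylesterase genes were described in single-cell RNA sequencing data from mouse kidney. The genes were taken from the authors' deposited table by name: every gene whose symbol starts with Ugt, Sult or Ces, or with Cyp or Aldh and a digit, leaving out 4 P450 genes (Cyp4a10, Cyp4a14, Cyp4b1 and Cyp2j13). The rule found 48 of the 8191 distinct genes in the table, in 161 of its 20111 entries, an entry being 1 gene in 1 cluster of cells. They comprised 21 P450, 14 aldehyde dehydrogenase, 7 glycosyltransferase, 2 sulfotransferase and 4 carboxylesterase genes. The mouse annotation of the same build holds 178 protein-coding genes with such names, so 27.0% of them were listed, from 9.52% of the sulfotransferases to 66.7% of the aldehyde dehydrogenases.

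P450 enzymes are haem proteins, mostly of the endoplasmic reticulum, that add oxygen to drugs, fatty acids, steroids and vitamins. They take electrons from a reductase. Aldehyde dehydrogenases oxidise reactive aldehydes to acids, and carboxylesterases cleave esters. Glucuronosyltransferases and sulfotransferases attach glucuronic acid or sulfate to small molecules, which makes them easier to excrete. In the kidney these enzymes are best known in the proximal tubule, where they act on filtered and secreted compounds and where P450 products of arachidonic acid are made.

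The groups were young and senescent mice of the C57BL/6 strain, each represented by 1 library of whole-kidney cells. No treatment or engineered allele is named for either group, and the ages, the sex and the number of animals per library are not known from the labels. The series states more cells for the young than for the senescent mice. The table holds 1 value per group for each gene in each of 7 clusters, whose labels are kept as the authors wrote them: Marco, T, B, Neutro, PT, LOH and endo. Its header states no unit, and the values are read here as mean expression per cell on a scale that is not stated.

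A gene is listed in a cluster only where its p-value was under 0.05 and its absolute log2 fold change was at least 0.36, so a gene that is not listed cannot be called unchanged. Below, a gene is called where the authors' deposited table gave both an adjusted p no higher than 0.05 and a difference of 2-fold or more. With 1 library per group there is no spread between mice, no test between the groups and no SD, and the test behind the authors' p-values is not stated; with 1 library per group it can only rest on the spread between cells. Depth and cells per cluster were not given. Of the 15 proximal tubule markers, 13 were listed in PT and none was at 0 in either library, while 0 of 10 endothelial markers were listed in endo. All 10 macrophage or monocyte markers were listed in Marco, 8 of 9 T or NK cell markers in T, and 6 of 7 B cell markers in B. Proximal tubule markers were listed in these clusters as well, 14 of 15 in Marco, 15 in T and 14 in B. Listing marks a difference between the libraries, so these counts do not show which cells a cluster holds.

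In PT, 29 of the 48 genes were listed, 20 with a higher and 9 with a lower mean in the senescent library. By family, the 8 listed aldehyde dehydrogenases, 7 of 9 P450s and both sulfotransferases were higher, the 4 carboxylesterases were lower, and the 6 glycosyltransferases were divided 3 and 3. In the authors' deposited table, 11 of the 29 were called higher and 7 were called lower. Over all 5037 genes listed in PT, 57.2% were called higher and 5.6% lower, and, called or not, 78.4% had a higher and 21.6% a lower mean. Of the listed enzyme genes, 37.9% were called higher and 24.1% lower, and the difference from all listed genes was not tested. Their median log2 ratio, computed after adding 1 to each mean, was 0.30, beside 0.23 for all listed genes. With 0.1 or 0.0001 added in place of 1, the enzyme genes' median was 0.69 or 0.78.

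**Figure D1:**
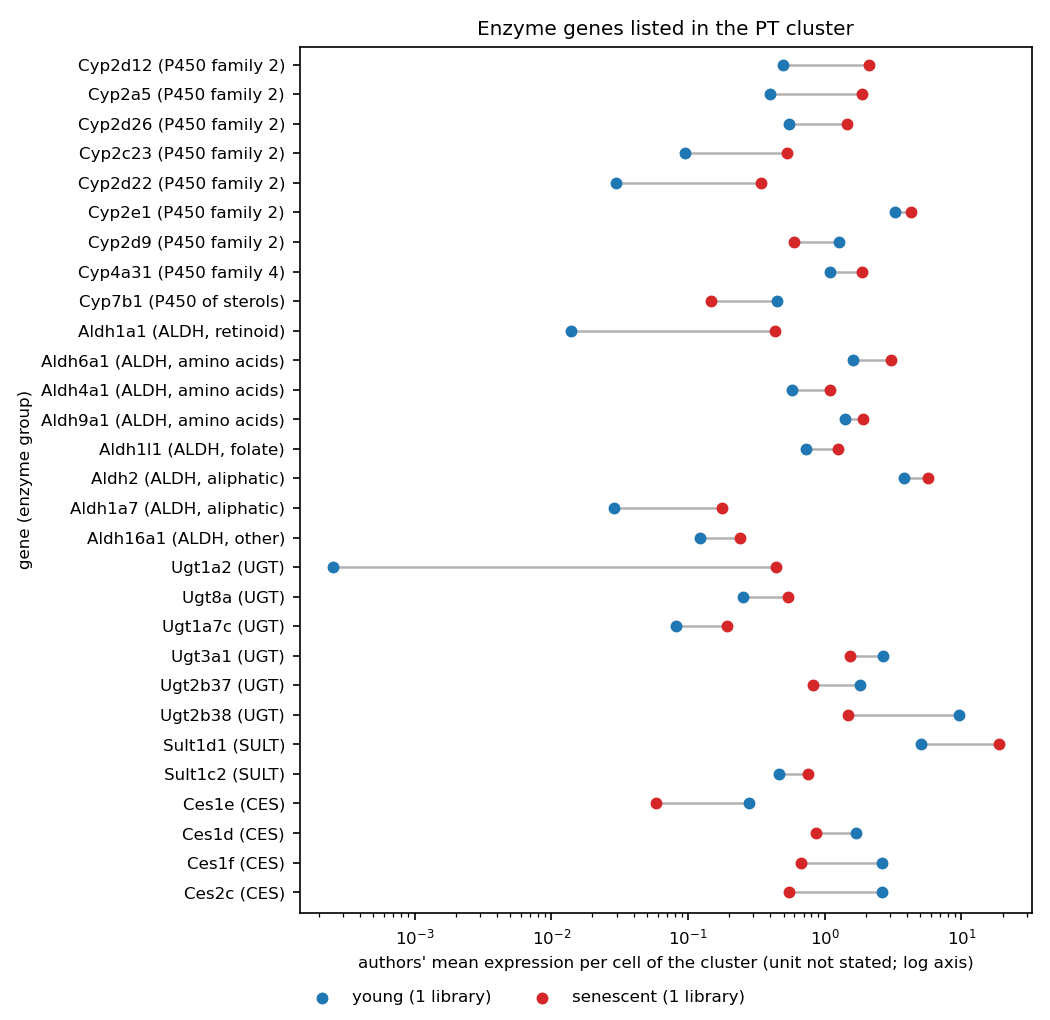
Mean expression per cell (log axis) of the 29 enzyme genes listed in PT, in the young (blue) and the senescent (red) library, with 1 library per group and no error bars. Points for the carboxylesterases and for Ugt2b37, Ugt2b38 and Ugt3a1 lie further left in the senescent library, and those for all 8 aldehyde dehydrogenases lie further right.

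Among P450s of family 2, which oxidise drugs, solvents and fatty acids, 6 of the 7 genes listed in PT were higher in the senescent library. The share over all genes listed there was 78.4%. Cyp2a5, the coumarin 7-hydroxylase gene, had a mean of 0.398 in the young library and 1.86 in the senescent one, so it was 4.67-fold higher. Cyp2c23, which encodes an epoxygenase of arachidonic acid in the kidney, had means of 0.0955 and 0.530 and was 5.55-fold higher. Cyp2e1, which oxidises ethanol and other small molecules, differed least, at 3.26 and 4.24, a 1.30-fold difference that did not reach the 2-fold limit.

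The Cyp2d genes, which oxidise drugs and steroids, did not share a direction in PT. Cyp2d22 had means of 0.0296 and 0.343 and was 11.6-fold higher in the senescent library. Cyp2d12 was 4.29-fold higher, at 0.495 and 2.12, and Cyp2d26 was 2.70-fold higher, at 0.544 and 1.47. Cyp2d9, a testosterone hydroxylase that is male-specific in mouse liver, was instead 2.14-fold lower, at 1.26 and 0.591. All 4 lie on chromosome 15 of build mm10, with Cyp2d9 (82452377 to 82456827) between Cyp2d22 (82370527 to 82380260) and Cyp2d12 (82555043 to 82559413), and Cyp2d26 at 82790107 to 82794452. Genes this alike may share reads, and how the counting assigned such reads was not given.

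The other P450s listed in PT were Cyp4a31 and Cyp7b1. Cyp4a31 belongs to the family that hydroxylates the end carbon of fatty acids and had means of 1.09 and 1.88, a 1.72-fold difference below the 2-fold limit. Cyp7b1, the oxysterol 7-alpha-hydroxylase gene, was 3.03-fold lower in the senescent library, at 0.445 and 0.147. The 12 P450 genes without an entry in PT included the epoxygenase gene Cyp2j5, the lanosterol demethylase gene Cyp51 and the arachidonic acid hydroxylase gene Cyp4a12a.

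All 8 aldehyde dehydrogenase genes listed in PT had higher senescent means, and 2 of them were called in the authors' deposited table. Over all genes listed in PT, 78.4% were higher and 57.2% were called higher. Aldh1a1, which makes retinoic acid from retinal, had means of 0.0140 and 0.431, a 30.9-fold difference. Its neighbour Aldh1a7 had means of 0.0290 and 0.176, a 6.08-fold difference. Both lie on chromosome 19 of mm10, Aldh1a1 from 20492583 to 20643463 and Aldh1a7 from 20692953 to 20727556. The remaining 6 differed by less than 2-fold. Aldh6a1, of valine breakdown, had means of 1.60 and 3.07. Aldh2, which clears acetaldehyde in mitochondria, had means of 3.82 and 5.70. Aldh4a1 of proline breakdown, Aldh9a1 of carnitine synthesis, the folate enzyme gene Aldh1l1 and Aldh16a1 were between 1.36-fold and 1.95-fold higher.

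Glycosyltransferases separated by subfamily. Ugt2b38, which encodes a glucuronosyltransferase, had PT means of 9.60 and 1.48 and was 6.49-fold lower in the senescent library. Ugt2b37, a relative of Ugt2b38, was 2.18-fold lower, at 1.80 and 0.824. Ugt3a1, of a subfamily that uses sugars other than glucuronic acid, was 1.74-fold lower, at 2.67 and 1.53, and so not called. In the opposite direction, Ugt8a, which makes galactosylceramide, had means of 0.251 and 0.535, a 2.14-fold difference.

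The listed Ugt1 genes were higher in the senescent PT. Ugt1a2 had means of 0.000253 and 0.440. Its young mean was the smallest above 0 in PT, so no fold is given. Ugt1a7c was 2.37-fold higher, at 0.0812 and 0.193. Genes of the Ugt1a locus join separate first exons to a common set of later exons, and both genes end at position 88220002 of chromosome 1 in mm10, Ugt1a7c starting at 88095001 and Ugt1a2 at 88200611. Reads from the common part cannot be assigned to 1 of them, and the treatment of such reads was not given.

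Both listed sulfotransferase genes were higher in the senescent PT, beside 78.4% of all genes listed there. Sult1d1, whose product sulfates catecholamine and other phenolic compounds, had means of 5.09 and 18.7, a 3.68-fold difference and the largest log2 ratio of the 29 genes after adding 1 to each mean (1.70). Sult1c2 had means of 0.466 and 0.753, a 1.61-fold difference that was not called. On chromosome 5 of mm10, Sult1d1 (87554650 to 87569006) lies 130.4 kb beyond the end of Ugt2b38 (87409939 to 87424203), which had the lowest log2 ratio of the 29 (-2.10).

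All 4 listed carboxylesterase genes were lower in the senescent PT, beside 21.6% of all genes listed there. Ces2c, of the family members best known in intestine, liver and kidney, had means of 2.62 and 0.550, a 4.76-fold difference. Ces1f was 3.93-fold lower, at 2.64 and 0.672. Ces1e was 4.83-fold lower, at 0.281 and 0.0582. Ces1d, which encodes a lipid ester hydrolase, had means of 1.70 and 0.860, a 1.98-fold difference just under the limit for a call. Ces1d, Ces1e and Ces1f are neighbours on chromosome 8 of mm10 between positions 93166072 and 93279766. Ces1 genes are alike in sequence and may share reads, and how such reads were counted was not given.

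Position in the genome went with direction in some blocks and not in others. Of the 48 genes, 27 fell into 10 blocks in which neighbours lay within 500 kb, and 5 blocks had at least 2 genes listed in PT. The Ugt1a, Aldh1a and Ces1 blocks each had a single direction in PT. The Cyp2d block and the block of Ugt2b37, Ugt2b38 and Sult1d1 held both directions.

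Annotations in the deposited table gave other groupings of the genes, which overlapped with the families of the name rule. Of the genes annotated to mitochondria, 7 were higher and 1, Cyp2d9, was lower in PT, whereas 388 of 792 other mitochondrial genes listed there were higher. Of those annotated to the endoplasmic reticulum, 9 were higher and 6 lower, beside 427 higher and 117 lower among other genes with that annotation. Among genes of retinol metabolism, 7 were higher (Ugt1a2, Cyp2a5, Aldh1a1, Cyp2c23, Cyp4a31, Aldh1a7 and Ugt1a7c) and 2 were lower (Ugt2b37 and Ugt2b38), beside 6 higher and 3 lower among other genes with that annotation. The 4 genes annotated with retinyl palmitate hydrolase activity were the 4 carboxylesterases. The 3 genes of arachidonic acid metabolism listed in PT, Cyp2c23, Cyp4a31 and Cyp2e1, were higher, beside 7 higher and 5 lower among other genes so annotated.

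Partners of these enzymes did not share 1 direction in PT either. Of 6 electron transfer partners, 4 were listed. Por, the reductase that supplies P450s, was 1.48-fold higher, at 0.855 and 1.26, and Cyb5a, the cytochrome b5 gene, was 2.47-fold lower, at 36.0 and 14.6. Of 15 genes of xenobiotic-sensing receptors and related transcription factors, 8 were listed, each with a higher senescent mean, and 4 were called in the authors' deposited table, where 78.4% of all genes listed in PT were higher and 57.2% were called higher. They included Ppara, a receptor for fatty acids, at 0.0927 and 0.505, and Nfe2l2, the regulator of antioxidant genes, at 0.245 and 1.23. The receptor genes Nr1i2, Nr1i3 and Ahr were not listed in PT.

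Genes that supply the substrates of conjugation were all listed, with 6 of 7 higher and 4 of these called, shares near the 78.4% and 57.2% over all genes listed in PT. Papss2, which makes the sulfate donor, was 3.69-fold higher, at 0.647 and 2.39. Its relative Papss1 was 2.33-fold lower, at 0.3601 and 0.1543. Ugdh, which makes UDP-glucuronic acid, was 2.22-fold higher, at 0.232 and 0.514, and Slc35d1, which carries it into the endoplasmic reticulum, was 4.64-fold higher, at 0.156 and 0.721.

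Conjugation enzymes of other families were lower. All 6 listed of 13 had lower senescent means in PT, and 3 were called, beside 21.6% lower and 5.6% called lower over all genes listed there. Inmt, a methyltransferase gene, had means of 7.997 and 0.4584, and the acyl-CoA synthetase gene Acsm1 had means of 1.13 and 0.247. Of 26 other oxidation and hydrolysis genes, 12 were listed, 6 in each direction. Cbr1, a carbonyl reductase gene, was 10.4-fold higher, at 0.403 and 4.18, and Akr1a1, which reduces aldehydes, was 2.86-fold lower, at 22.2 and 7.76. Of 13 genes of retinoid handling, 5 were listed and 4 of them were higher, among them Rdh16, a retinol dehydrogenase gene, at 0.277 and 1.55, and Dhrs3, which reduces retinal, at 0.730 and 2.24.

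**Figure D2:**
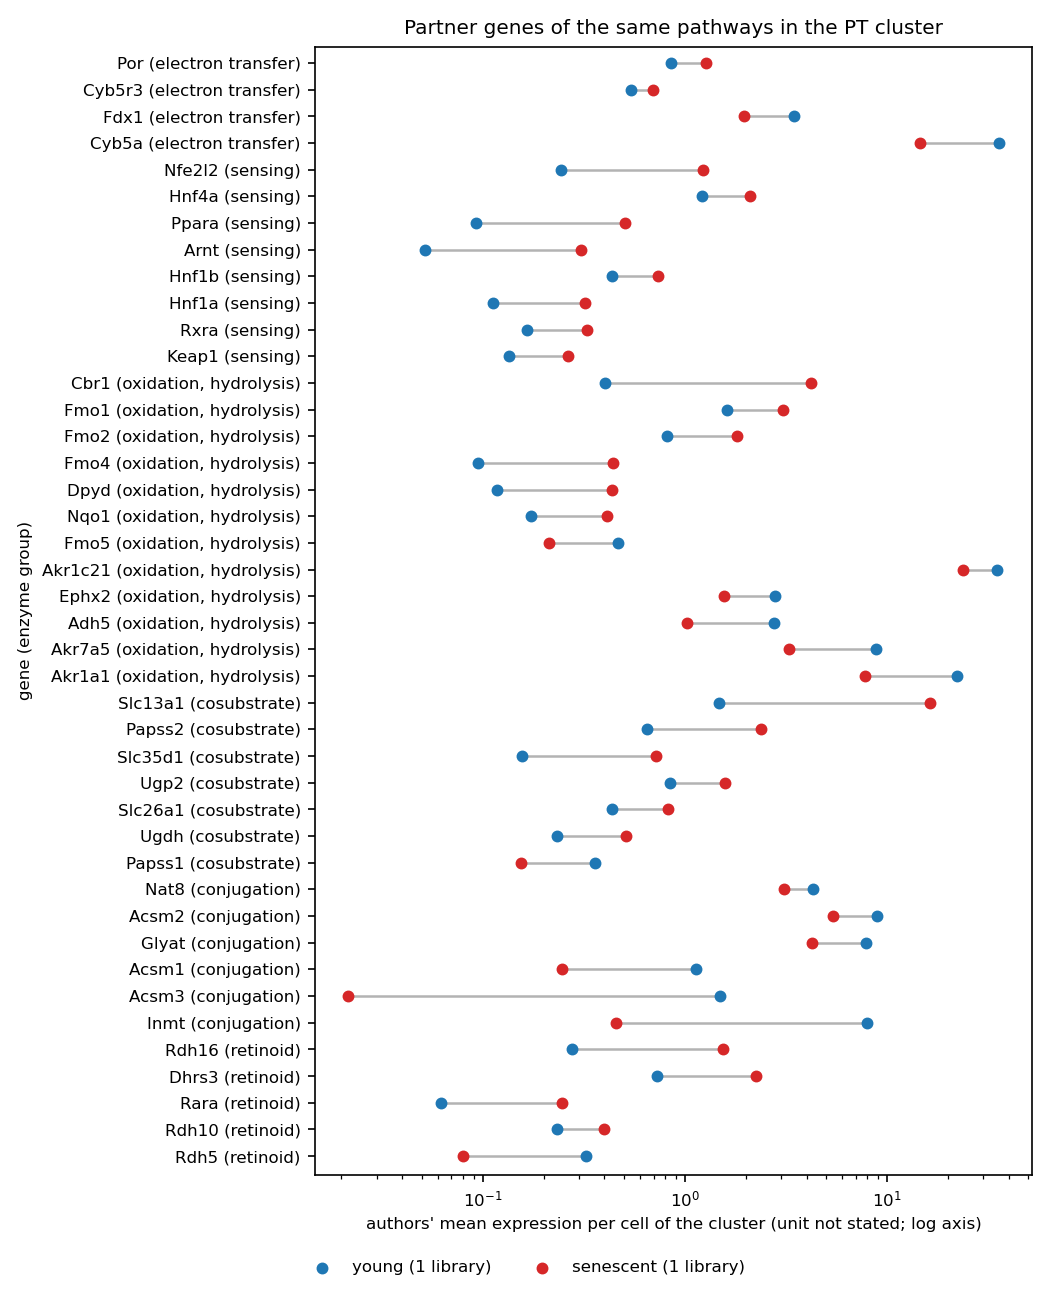
Mean expression per cell (log axis) in PT of listed genes from 6 lists of partner genes, young in blue and senescent in red, with 1 library per group. The 8 listed sensing genes lie further right in the senescent library, and the 6 listed conjugation enzymes lie further left.

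Markers of the tubule and of other cell types also differed in PT. Of the 13 listed proximal tubule markers, 7 were higher and 6 lower, with summed means of 830 and 109.8. Most of the young sum came from 1 marker, Kap, and the markers' median log2 ratio was 0.51. The 2 listed of 5 neutrophil markers were higher, at 0.629 and 2.05 summed, and the 1 listed of 7 B cell markers, the immunoglobulin gene Igkc, was higher, at 0.501 and 1.59. The 3 listed of 8 thick ascending limb markers were lower, with summed means of 4.75 and 0.625. The 3 listed of 4 erythroid markers, all haemoglobin genes, were lower too, at 6.86 and 3.28 summed. Kap, an androgen-induced gene, had means of 719 and 21.4. The Y-linked genes Ddx3y, Uty, Kdm5d and Eif2s3y were above 0 in PT of both libraries. Their part in the values of the enzyme genes was not tested. The left-out P450 genes differed in PT as well and did not share a direction. Cyp4b1, at 13.0 and 3.05, and Cyp2j13, at 0.614 and 0.0865, were lower in the senescent library. Cyp4a14, at 0.3601 and 5.07, and Cyp4a10, at 1.47 and 2.48, were higher.

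Outside PT the enzyme genes were nearly all lower in the senescent library, in 126 of 132 entries. In T, all 37 listed enzyme genes had a lower mean, where 55.2% of all listed genes were lower and 44.8% higher. In B, all 31 were lower, beside 71.8% lower and 28.2% higher over all listed genes. In LOH, all 19 were lower, beside 52.2% lower and 47.8% higher. In Marco, 31 were lower and 4 higher, beside 41.7% and 58.3%. In endo, 6 were lower and 2 higher, beside 51.8% and 48.2%. In Neutro both listed enzyme genes were lower, beside 93.7% lower and 6.35% higher, and neither they nor any other gene of that cluster (0%) was called.

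Calls in the authors' deposited table followed the same direction. In Marco, 27 of 35 enzyme genes (77.1%) were called lower, beside 23.6% of all listed genes. In T, 27 of 37 (73%) were called lower, beside 20.7%, and 0 were called higher, beside 3.85%. In B, 14 of 31 (45.2%) were called lower, beside 15.5%, and 0 higher, beside 2.79%. In LOH, 10 of 19 (52.6%) were called lower, beside 6.87%, and 0 higher, beside 2.16%. In endo, 1 of 8 (12.5%) was called lower, beside 0.584%, and 0 higher, beside 0.389%. Median log2 ratios of the enzyme genes were -0.82 in Marco and -0.80 in T, with 0.23 and -0.11 over all listed genes. They were -0.79 in B, -0.57 in LOH and -0.56 in endo, with -0.27, -0.11 and -0.10 over all listed genes. Of the 20 genes with a higher senescent mean in PT, 16 had a lower one in Marco, T, B or LOH. The same share over all listed genes was not computed.

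**Figure D3:**
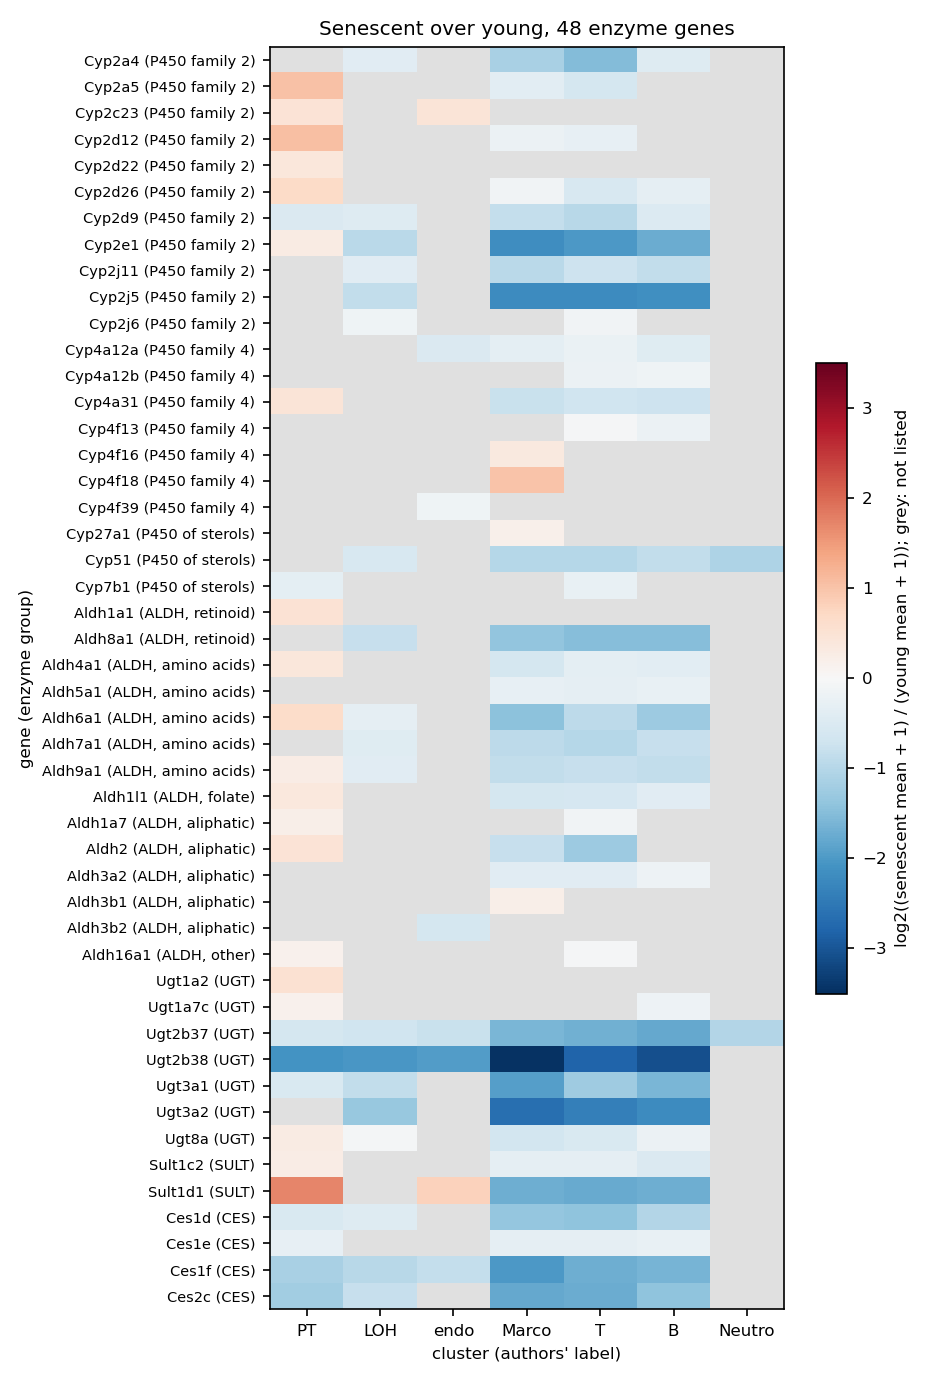
Log2 ratio of the means, senescent to young with 1 added to both, for the 48 enzyme genes (rows, by enzyme group) in 7 clusters (columns), with red for higher and blue for lower in the senescent library and grey for not listed. The PT column holds 20 red and 9 blue cells, and the columns for LOH, T and B hold blue cells only.

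Ugt2b37 was the 1 gene listed in all 7 clusters, and it had a lower senescent mean in each. Its means were 1.80 and 0.824 in PT, 0.855 and 0.154 in LOH, 2.14 and 0.829 in endo, 2.20 and 0.0571 in Marco, 2.30 and 0.0213 in T, and 2.63 and 0.0402 in B. In Neutro it was at 1.07, the smallest young mean above 0 in that cluster, and 0.0170. The young means thus lay close together in PT, endo and the immune clusters Marco, T and B, whereas the senescent means were lower in those immune clusters than in PT and endo.

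Ugt2b38 and Ces1f were each listed in 6 clusters and were lower in each. Ugt2b38 had young means between 4.17 in LOH and 11.0 in Marco. Its senescent means were 1.48 in PT and 1.15 in endo, and they lay between 0.0908 and 0.267 in LOH, Marco, T and B. Ces1f, a carboxylesterase gene, had young means between 1.16 in LOH and 3.38 in Marco, and it was listed at 0 in the senescent B.

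Other genes were lower in the immune clusters and higher in PT. Sult1d1 had means of 7.40 and 1.55 in Marco, 7.20 and 1.41 in T, and 7.37 and 1.55 in B, where it was not called. In endo it was higher in the senescent library, at 6.19 and 11.5, but was not called there. Cyp2e1 was 13.8-fold lower in Marco, at 5.27 and 0.383, 16.4-fold lower in T, at 3.96 and 0.242, and 11.6-fold lower in B, at 3.23 and 0.279. Aldh6a1 was 8.45-fold lower in Marco, at 2.53 and 0.300, although its PT mean was higher in the senescent library. Ugt8a was 14.3-fold lower in Marco, at 0.634 and 0.0442.

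Some enzyme genes were listed outside PT but not in it: 8 genes in LOH, 12 in B, 13 in T and 14 in Marco, of which 4 had a higher senescent mean there. Cyp2j5, an arachidonic acid epoxygenase gene of the tubule, had means of 5.68 and 0.444 in Marco, 5.17 and 0.338 in T, 4.56 and 0.251 in B, and 2.21 and 0.780 in LOH. Ugt3a2, next to Ugt3a1 on chromosome 15, had means of 6.75 and 0.246 in Marco, 5.48 and 0.232 in T, and 4.43 and 0.189 in B. Aldh8a1, of tryptophan breakdown, had means of 2.08 and 0.185 in Marco and 2.23 and 0.140 in T. Cyp2a4, whose product hydroxylates testosterone, had means of 1.58 and 0.164 in Marco and 2.38 and 0.181 in T. Cyp4a12a, an androgen-induced gene of arachidonic acid hydroxylation, had means of 0.263 and 0.00168 in Marco, and was listed at 0 in the senescent T and B. Cyp2a4 and Cyp2a5, and Cyp4a12a and Cyp4a12b, are near-identical pairs that may share reads, and how such reads were counted was not given.

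Cyp51 and the amino acid aldehyde dehydrogenases showed the same direction. Cyp51, of cholesterol synthesis and not confined to tubules, was 4.63-fold lower in Marco, at 1.80 and 0.388, 7.33-fold lower in T, at 1.38 and 0.189, and 3.89-fold lower in B, at 1.57 and 0.405. It was also 1 of the 2 enzyme genes listed in Neutro, at 1.12 and 0. Aldh7a1, of lysine breakdown, had means of 1.35 and 0.239 in Marco, 1.38 and 0.193 in T, and 1.34 and 0.347 in B. Aldh5a1, of GABA breakdown, had means of 0.249 and 0.0161 in Marco and was listed at 0 in the senescent B.

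Levels outside PT were next set against the PT level of the same gene in the same library, for genes listed in both clusters with a PT mean of 0.1 or more in that library. In the young library the median was 108% of the PT level in Marco (21 genes), 86.5% in T (23 genes), 85.1% in B (18 genes) and 47.5% in LOH (11 genes). In the senescent library it was 8.99% in Marco (20 genes), 7.56% in T (23 genes), 8.32% in B (18 genes) and 18.8% in LOH (11 genes). The genes' ranges did not overlap between the libraries in Marco, T or B. The same was not computed over all listed genes, so this does not set the enzyme genes apart. The ranges in Marco ran from 51.6% to 253% in the young and from 6.24% to 21.4% in the senescent library. In endo the medians were 97.7% (4 genes) and 66.9% (5 genes). Only listed genes could be compared, so these are genes that differed between the libraries in both clusters.

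**Figure D4:**
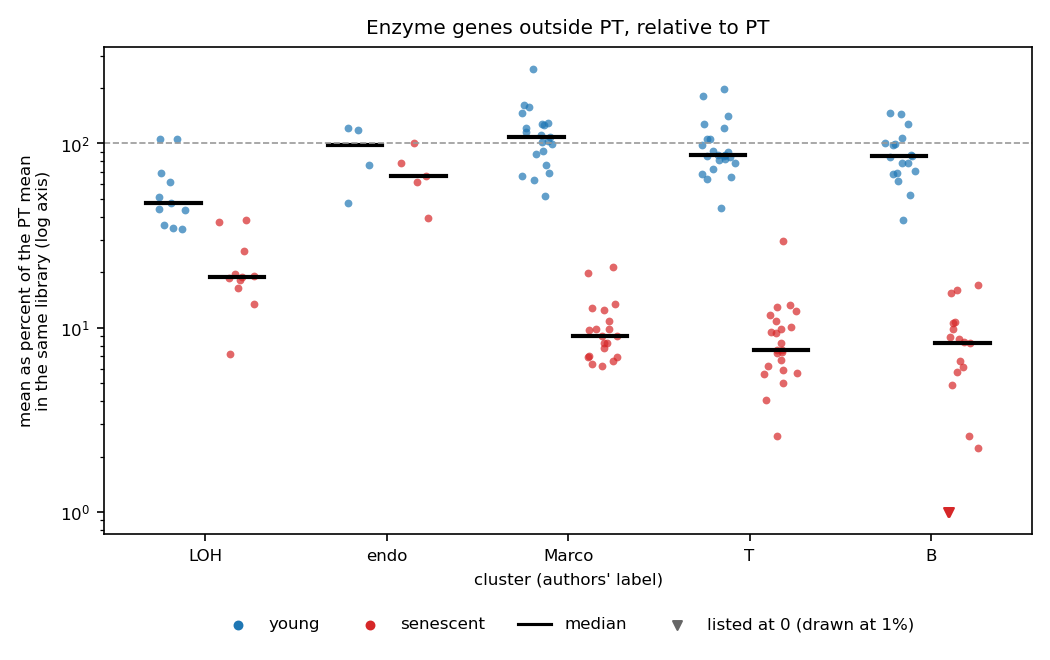
Mean of each enzyme gene in 5 clusters as a percentage of its PT mean in the same library (log axis). Young is in blue and senescent in red, with black bars for the medians and a dashed line at 100%. Triangles stand for Ces1f and Ugt1a7c, both listed at 0 in the senescent B. In Marco, T and B the young points lie around the PT level, with medians between 85.1% and 108%, and the senescent medians lie between 7.56% and 8.99%.

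In T the levels ran from 44.8% (Cyp7b1) to 197% (Ugt8a) of the PT level in the young library and from 2.58% (Ugt2b37) to 29.6% (Aldh16a1) in the senescent one. Sult1d1, higher in the senescent PT, was at 142% of its PT level in the young T and at 7.53% in the senescent T. Ugt2b38, lower in the senescent PT, was at 72.6% and 9.86%. Cyp2d12, another gene with a higher senescent PT mean, was at 82.1% and 7.28%.

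Proximal tubule markers moved with the enzyme genes in every one of these clusters. In Marco, 14 of 15 markers were listed, each with a lower senescent mean, and their summed means were 749 and 11.9. In T all 15 were lower, at 598 and 10.3 summed, and in B the 14 listed were lower, at 599 and 9.16. In LOH 12 of the 13 listed were lower, at 254.6 and 14.3 summed, and in endo all 5 listed were lower, at 328 and 22.4. None of these markers was listed at 0 in either library. As in PT, most of each young sum came from Kap, so the differences between the sums mainly describe that gene. Kap alone had means of 642 and 2.24 in Marco, and of 202 and 1.54 in LOH. The markers' median log2 ratios were -0.99 in LOH, -1.14 in endo, -1.64 in T, -1.75 in B and -1.77 in Marco. What part tubule transcripts have in the enzyme values outside PT was not tested.

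In Marco, 4 enzyme genes had higher senescent means, and none of them was listed in any other cluster. Cyp4f18, whose product hydroxylates leukotriene B4 and related lipids in myeloid cells, had means of 0.0596 and 1.13, a 19.0-fold difference. It was the 1 enzyme gene called higher in Marco in the authors' deposited table, where 22.9% of all listed genes were. Cyp4f16, of the same family, was 7.83-fold higher, at 0.0407 and 0.318. Aldh3b1, an aldehyde dehydrogenase gene for lipid aldehydes, was 2.30-fold higher, at 0.127 and 0.293. Cyp27a1, the sterol 27-hydroxylase gene, was 2.11-fold higher, at 0.136 and 0.287. The last 3 did not pass the adjusted p.

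All 10 macrophage or monocyte markers were higher in the senescent Marco too, at 32.1 and 186 summed. Neutrophil markers, of which 3 of 5 were listed, were at 0.0589 and 6.58 summed, with S100a8 at 0 in the young library. Their part in the Cyp4f18 difference was not tested. Cyp4f18 lies on chromosome 8 of mm10 from 71988482 to 72009668, and Cyp4f16 on chromosome 17 from 32536545 to 32551798.

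**Figure D5:**
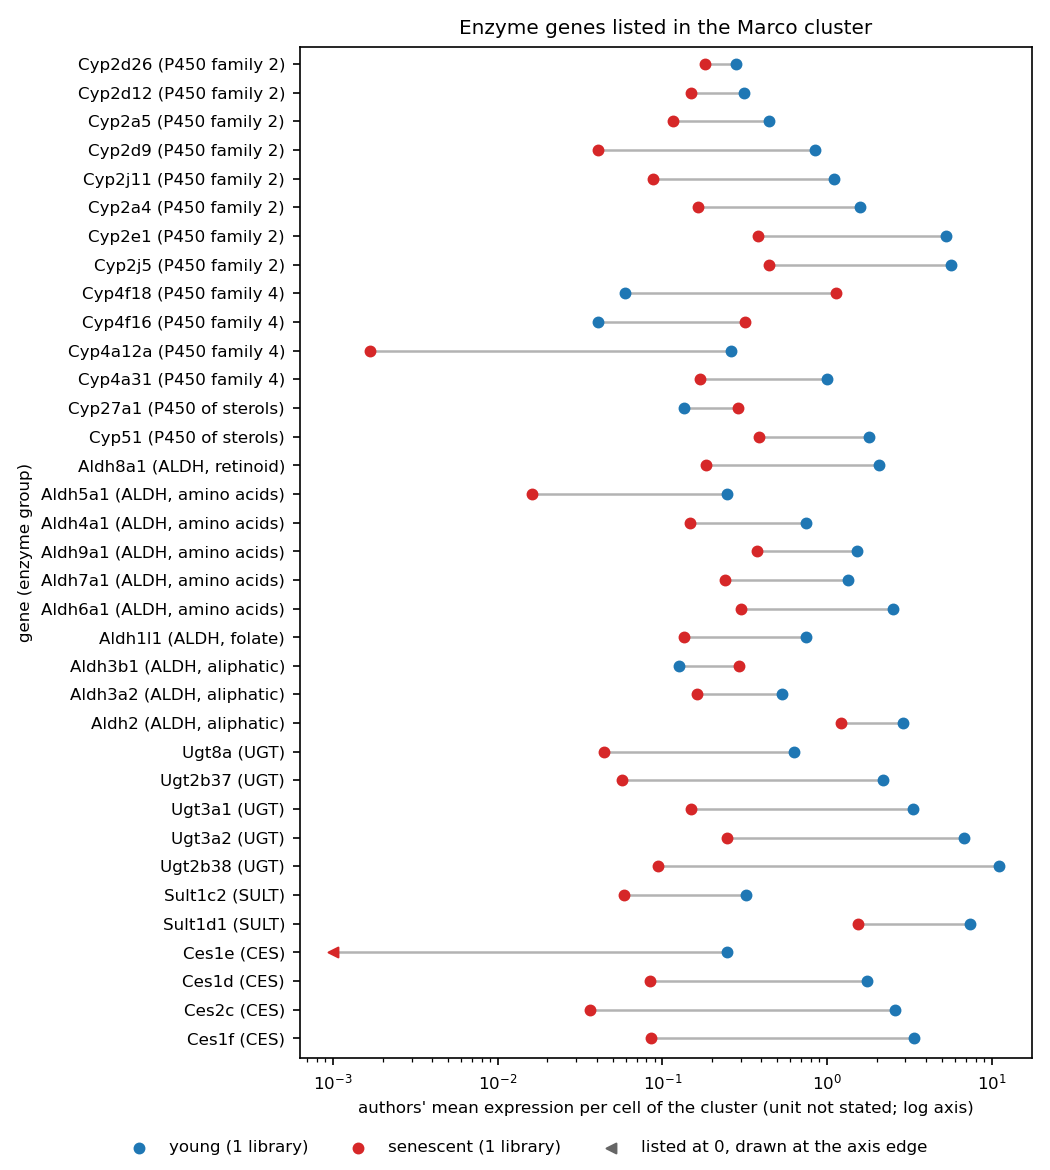
Mean expression per cell (log axis) of the 35 enzyme genes listed in Marco, young in blue and senescent in red, with 1 library per group. Cyp4f18, Cyp4f16, Cyp27a1 and Aldh3b1 lie further right in the senescent library, the other 31 lie further left, and Ces1e, listed at 0 in the senescent library, is drawn at the axis edge.

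In endo, 8 enzyme genes were listed, and 1 of them, Ugt2b38, was called in the authors' deposited table, with means of 7.34 and 1.15. Cyp2c23 was listed at 0 in young endo and had a senescent mean of 0.355. Aldh3b2 and Cyp4f39 were listed in this cluster alone, at 0.599 and 0.0518 and at 0.118 and 0.00440, and neither passed the adjusted p.

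In LOH, all 4 listed glycosyltransferases of subfamilies 2b and 3a were called lower. Ugt2b38 was 15.6-fold lower, at 4.17 and 0.267, and Ugt3a2 was 6.59-fold lower, at 2.44 and 0.370. Ugt8a, the fifth glycosyltransferase listed there, was 1.33-fold lower, at 0.265 and 0.200, and was not called. Umod, the uromodulin gene and the 1 thick ascending limb marker of 8 listed in LOH, was at 47.6 and 148.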

How the data were processed

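Cells from whole kidneys of young and senescent mice were measured by single-cell RNA sequencing in 2 libraries. Cell Ranger 2.1.1 and build mm10 are named, per the submitters' processing notes. How cells were filtered, doublets treated, clusters made, values scaled and groups tested is not given in the sources used here. In the deposited table the authors give a signal per gene, cluster and group, read here as mean expression per cell because its header names no unit. The deposited log2 fold changes match the log2 ratio of senescent to young values with 0.0001 added to both, to within 0.01, for every enzyme gene. The authors also deposited p-values, raw and adjusted. Columns were assigned by the descriptions in the labels; the table names its contrast C57-vs-WT-48, which does not name young or senescent, so every direction rests on those descriptions.

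Computed here were ratios of means, counts past the call rule, medians of the log2 ratio with 1 added to both means (genes reaching 0.1 in the higher library), and levels relative to PT. The code was tested on simulated data. All 48 symbols matched RefSeq on GRCm38, the same build. The enzyme genes and lists were chosen with earlier results of these data known. By rule, genes named in PT were up to 4 per role group and direction with the largest fold change among those with an adjusted p up to 0.05 and a mean reaching 0.1, and the 3 with the largest means in each superfamily. In other clusters up to 3 per direction were named, and genes listed in 5 or more clusters. Outside that rule, Aldh3b1, Aldh3b2, Aldh5a1, Aldh7a1, Aldh8a1, Cyp27a1, Cyp2a4, Cyp2d26, Cyp2j5, Cyp4a12b, Cyp4f16, Cyp4f39, Ugt3a2 and the partner genes were named after their values were seen. Alternatives were other thresholds, pseudocounts and filters. Depth was unknown, so no interval was computed. Python 3.11.15, numpy 2.4.6, pandas 2.3.3 and matplotlib 3.10.9 were used.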

Additional observations from a re-analysis of the deposited data

Results flagged for a closer look

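Directions of the enzyme genes differed between clusters in the same pair of libraries, and the differences were not tested, since each group had 1 library. The median log2 ratio of the listed enzyme genes was 0.30 in PT but -0.57 in LOH, -0.56 in endo, -0.82 in Marco, -0.80 in T and -0.79 in B. For 3 genes the authors' deposited table gave calls in opposite directions, and such genes were not counted over all listed genes. The log2 ratio of Sult1d1, after adding 1 to each mean, was 1.70 in PT, -1.72 in Marco and -1.77 in T. For Cyp2d26 it was 0.68 in PT and -0.55 in T. For Ugt8a it was 0.30 in PT, -0.65 in Marco and -0.53 in T.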

How the results depend on the processing

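No paired analysis was possible because each group had 1 library, and no library could be left out. Across 24 counts, medians and relative levels, 89 of 110 alternative values lay within 1.5 times of the reported one. Log2 medians were compared as linear ratios, and 0 of them changed direction. Counts and relative levels have no direction to change, and another pseudocount cannot reverse the direction of a single gene. At a 1.5-fold limit 17 genes were called higher in PT, and at 4-fold 7 were called higher and 3 lower. Shares over all listed genes were not computed at these 2 limits. Without the adjusted p, 6 were lower in endo, 29 lower in B and 4 higher in Marco, beside 33.9%, 54.1% and 47.6% of all listed genes. Medians moved with the pseudocount, which limits their size as a measure. With 0.1 added they were 0.69 in PT, -1.40 in LOH, -1.58 in endo, -2.03 in Marco, -2.13 in T and -1.89 in B, and with 0.0001 added they were 0.78, -1.82, -2.45, -3.08, -3.65 and -2.99. Over genes with a mean of at least 1 they were -1.44 in Marco, -1.51 in T and -1.54 in B. Over genes past the adjusted p they were -1.96 in endo (1 gene) and -1.54 in B. Counts without near-identical copies stayed within 1.5 times. The copies left out were the Ugt1a, Ces1 and Cyp4a12 genes, Cyp2a4 and Cyp2a5, while the related Cyp2d, Ugt2b and Ugt3a genes were kept.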
